A study of Mus musculus with 9 samples.

Results

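Bulk RNA sequencing of mouse jejunum, the middle stretch of the small intestine, was examined for 8 genes of nucleoside uptake and purine handling. They were the nucleoside transporters Slc28a1, Slc28a2, Slc28a3 and Slc29a1 and the enzymes Nt5e, Ada, Pnp and Xdh, found by gene symbol among the 21868 genes of the deposited count table. All 8 were present and passed the filter on low counts, which left 14668 genes for testing. The members were selected with measured differences among these same groups in view, so their levels and fold changes across the groups are a description and no independent evidence.

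The groups were sham, TPN and starvation, each lasting 24 h, with 3 libraries per group, named here by group and replicate number (sham 2). TPN is total parenteral nutrition, the infusion of nutrients into a vein in place of feeding by the gut. Each library came from a 5 cm piece of jejunum opened along its length, so all layers of the wall could contribute RNA. The labels give neither strain, age and sex, nor the sham procedure or what the sham mice ate. The replicates are labelled biological, with no statement on whether separate mice were used, so p-values may not reflect the spread between mice. No allele or transgene is named for any group. Levels are CPM, read counts divided by library size and scaled with the TMM factors of edgeR, and group values are mean ± SD over 3 libraries.

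Food brings nucleic acids into the gut, where nucleases, phosphatases and nucleotidases strip them to nucleosides. Concentrative transporters of the SLC28 family take nucleosides up from the lumen together with sodium, and equilibrative transporters of the SLC29 family let them move down their gradient. Inside the enterocyte, the absorbing cell of the villus, purine nucleosides are deaminated by Ada, split to bases by Pnp, and then either salvaged to nucleotides or oxidised by Xdh to urate. By function the group is therefore mixed: Slc28a1 carries mainly pyrimidine nucleosides, and Xdh acts in purine breakdown.

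The markers matched proximal small intestine, which is wider than jejunum alone, so they do not test the jejunum label itself. Epithelial markers (7 of 7 detected) averaged 8.60 to 9.38 log2 CPM over the 9 libraries, and markers of proximal small intestine averaged 4.83 to 6.72 against -1.01 to 0.66 for ileal markers. Sham 2 and starvation 3 stood apart from their groups. Sham 2 had smooth muscle markers at 9.50 log2 CPM, against 4.47 to 6.59 in the other 8 libraries, and villus tip markers at 8.26. Starvation 3 had the highest villus tip markers of the 9 libraries, at 8.56 log2 CPM, and the lowest crypt stem cell markers, at 3.28 against 4.74 to 5.37 in the other 8. Pancreatic acinar markers reached 4.34 to 10.12 log2 CPM in sham 1, TPN 1, TPN 2 and starvation 1 and stayed below 0 in the others. Total counts ran from 7779877 to 12084278, so that 1 read was worth 0.0798 to 0.119 CPM.

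Promoters of 4 members are shown because their genes bear the likenesses and contrasts described after them. Slc28a1 and Slc28a2 are sister transporters with unlike patterns over the libraries, and Ada and Nt5e are the members most alike. The windows are RefSeq sequences on GRCm38.p6, from 250 bases before to 50 after the start site, written 5′ to 3′ on the gene's strand. They lie at chr7:81114549-81114848 (+) for Slc28a1, chr2:122426185-122426484 (+) for Slc28a2, chr2:163750190-163750489 (-) for Ada and chr9:88327359-88327658 (+) for Nt5e. For Slc28a2 the RefSeq start lies upstream of the gene start given by GENCODE. For Nt5e the RefSeq start lies downstream of the GENCODE gene start at 88327197, so the whole window falls inside that gene. Capitals mark matches, on either strand, to any of 5 motifs.
Slc28a1: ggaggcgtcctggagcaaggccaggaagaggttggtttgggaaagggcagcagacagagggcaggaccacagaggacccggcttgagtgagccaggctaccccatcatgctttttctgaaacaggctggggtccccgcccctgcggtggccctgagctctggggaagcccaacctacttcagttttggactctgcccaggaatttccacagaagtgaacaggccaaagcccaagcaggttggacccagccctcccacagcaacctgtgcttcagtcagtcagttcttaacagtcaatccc
Slc28a2: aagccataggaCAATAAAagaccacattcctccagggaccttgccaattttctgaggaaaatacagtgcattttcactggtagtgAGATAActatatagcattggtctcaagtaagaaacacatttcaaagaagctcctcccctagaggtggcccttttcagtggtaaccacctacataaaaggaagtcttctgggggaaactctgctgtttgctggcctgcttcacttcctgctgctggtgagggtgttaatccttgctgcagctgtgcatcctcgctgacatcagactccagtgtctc
Ada: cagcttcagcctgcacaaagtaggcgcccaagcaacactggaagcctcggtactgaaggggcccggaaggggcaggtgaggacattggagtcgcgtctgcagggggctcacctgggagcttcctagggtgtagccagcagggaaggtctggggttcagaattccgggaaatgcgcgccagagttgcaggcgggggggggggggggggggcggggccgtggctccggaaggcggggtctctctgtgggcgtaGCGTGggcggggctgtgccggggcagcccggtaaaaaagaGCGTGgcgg
Nt5e: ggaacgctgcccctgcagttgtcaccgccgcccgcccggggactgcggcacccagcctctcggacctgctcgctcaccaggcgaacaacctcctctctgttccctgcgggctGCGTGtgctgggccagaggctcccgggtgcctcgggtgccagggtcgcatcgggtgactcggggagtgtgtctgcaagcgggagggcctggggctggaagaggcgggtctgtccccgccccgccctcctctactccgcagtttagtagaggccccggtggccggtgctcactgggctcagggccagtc

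The HNF4 motif was searched as CAAAGTNCA, where N is any base, and occurs in 1.41% of the 32851 promoter windows of this length. The CDX2 motif was searched as TTTATNG and occurs in 10.9%. The motif of GATA-type zinc finger factors was searched as AGATAA and occurs in 11.2%. The core of the aryl hydrocarbon receptor site was searched as GCGTG and occurs in 32.4%. The E-box was searched as CACGTG and occurs in 7.15%. Slc28a2 held a CDX2 match at -239 and a match to the zinc finger motif at -165, counted from the start site, and none of the 5 motifs occurred in the Slc28a1 window. Ada held the receptor core at 1 and 41, and Nt5e held it at -138. The core was not particular to these genes: of the members not shown, Slc28a3 held it at -110 and some Slc29a1 windows held it too. Matches in the windows shown did not overlap each other. A match describes the letters and is no evidence of binding.

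Slc28a1, the concentrative transporter of pyrimidine nucleosides (chr7:81114799-81170416 on GRCm38, + strand), was low in every TPN library. Its level was 117, 87.7 and 129 CPM in sham 1 to 3, 23.7, 17.4 and 16.3 in TPN, and 144, 207 and 273 in starvation. The means were 111 ± 21.3, 19.1 ± 4.03 and 208 ± 64.9 CPM, and the 3 groups did not overlap: TPN lay below sham and starvation above it. Slc28a1 fell 5.81-fold in TPN against sham (log2 fold change -2.54 ± 0.27, ± SE, edgeR quasi-likelihood adjusted p = 0.00167 over all genes). Against starvation, Slc28a1 in TPN was 10.8-fold lower (log2 fold change -3.44 ± 0.28, edgeR adjusted p = 7.6e-04). Its log2 fold change in starvation against sham was 0.90 ± 0.26, and this did not pass (edgeR adjusted p = 0.0838). The TPN libraries enter both of these falls, and the sham libraries enter both comparisons with sham, so the 3 values are not separate observations. Markers of proximal small intestine, in the same libraries, averaged 5.54 to 6.72 log2 CPM in sham, 4.83 to 5.28 in TPN and 5.43 to 5.92 in starvation, and their part in the Slc28a1 level was not tested. Bulk libraries cannot tell fewer cells of a type from less RNA per cell, here or in any result below.

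Slc28a2, the concentrative transporter with a preference for purine nucleosides (chr2:122426477-122461137, + strand), did not share the low TPN level. It stood at 368, 806 and 289 CPM in sham, 455, 250 and 377 in TPN, and 263, 486 and 2585 in starvation. All groups overlapped, and starvation 3 was 6.90 times the mean of the other starvation libraries. The log2 fold change of Slc28a2 was -0.44 ± 0.74 in TPN against sham and 1.19 ± 0.75 in starvation against sham. Without starvation 3 the latter turned to -0.40, and without sham 2 the former turned to 0.13, so neither sign held without these libraries.

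A near copy lies beside Slc28a2 on chromosome 2, the gene listed as Gm14085 (chr2:122484941-122528040). Of the 50-base stretches in Slc28a2 exons, 35.4% also occur in Gm14085, so reads could be split or lost between them. Gm14085 stayed at 0 to 1.68 CPM, with 3 reads over the sham libraries, 19 over TPN and 42 over starvation. It held at most 0.634% of the reads counted for the pair in any library. No source used here states how reads mapping to both were counted. The starvation count of Gm14085 was 14.4 times that of sham after scaling for depth, with a 95% interval of 4.61 to 72.8 that covers counting error only. Over the libraries Gm14085 did not pass in starvation against sham (fitted log2 fold change 3.63 ± 1.0, edgeR adjusted p = 0.0772).

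Slc28a3, the concentrative transporter with broad substrate range (chr13:58545399-58610877, - strand), was the lowest member per kilobase of exon. Its level was 19.8, 6.83 and 16.7 CPM in sham, 19.6, 22.4 and 18.6 in TPN, and 18.8, 16.5 and 3.93 in starvation. The low values were those of sham 2 and starvation 3, the libraries with the highest villus tip markers and the lowest stem cell markers of their groups. Slc28a3 had a log2 fold change of 0.48 ± 0.52 in TPN against sham and -0.14 ± 0.52 in starvation against sham.

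Slc29a1, the equilibrative transporter (chr17:45585200-45599606, - strand), was lowest in starvation. It was at 20.6, 46.2 and 20.0 CPM in sham, 28.8, 33.5 and 35.6 in TPN, and 17.1, 16.8 and 13.1 in starvation. Starvation lay below both other groups without overlap, whereas TPN lay inside the sham range that sham 2 widened. The log2 fold change of Slc29a1 was -0.88 ± 0.31 in starvation against sham and 1.06 ± 0.31 in TPN against starvation (edgeR adjusted p = 0.136 and 0.0807). Without sham 2 the former shrank to -0.38 (edgeR adjusted p = 0.28), while the latter was 1.06 (edgeR adjusted p = 0.00835). Slc29a1 in TPN against sham was at 0.17 ± 0.31, and at 0.68 without sham 2 (edgeR adjusted p = 0.0569). An antisense gene, Gm17080, shares 275 bases of exon with Slc29a1, and the labels name no step that keeps the strand, so reads there cannot be told apart.

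**Figure D1:**
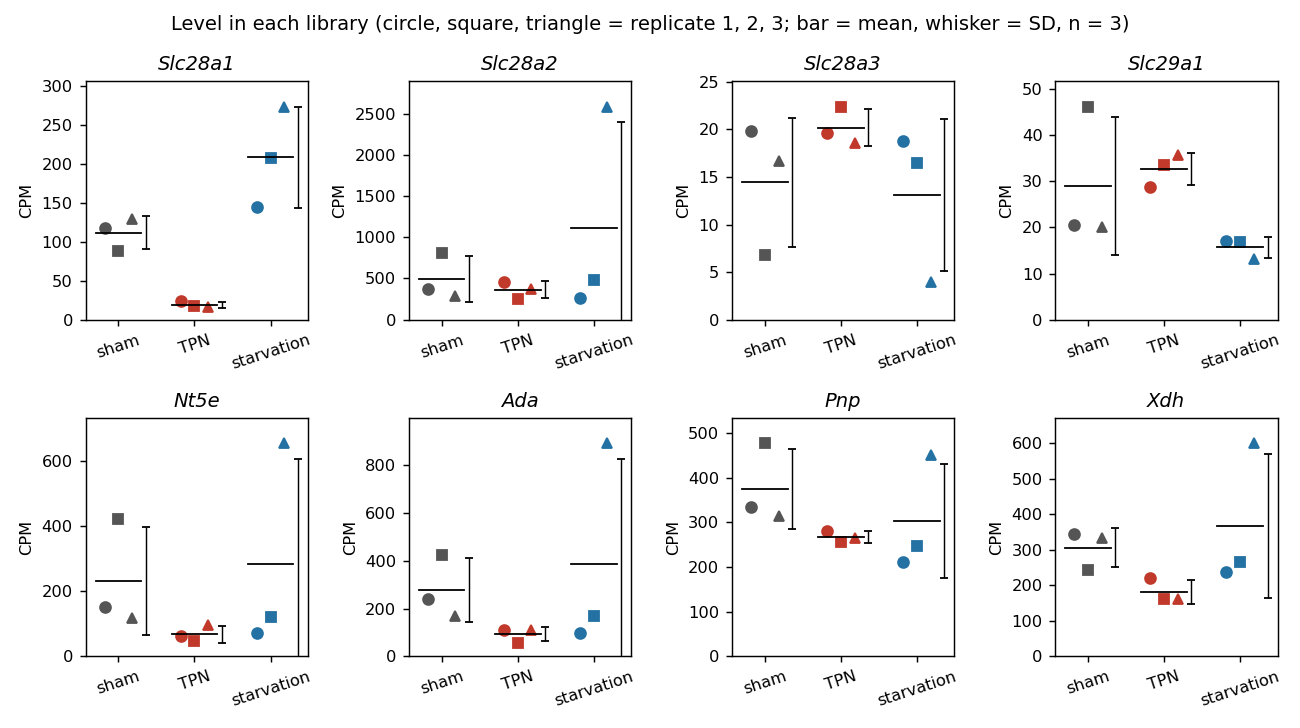
CPM of the 8 genes in each library, on linear axes from 0, with circle, square and triangle for replicates 1, 2 and 3, a bar for the group mean and a whisker for the SD (n = 3, cut at 0 where it would pass below). Slc28a1 separates the 3 groups, from 16.3 to 23.7 CPM in TPN to 144 to 273 in starvation, and in Slc28a2, Nt5e and Ada the triangle of starvation 3 stands far above the other starvation libraries.

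Nt5e encodes CD73, the surface enzyme that turns extracellular AMP into adenosine (chr9:88327197-88372092, + strand). It was at 152, 420 and 119 CPM in sham, 61.7, 45.9 and 96.7 in TPN, and 71.9, 122 and 653 in starvation. All TPN libraries lay below all sham libraries, and the starvation libraries spanned both. Its log2 fold change was -1.75 ± 0.79 in TPN against sham, which did not pass (edgeR adjusted p = 0.19), and -0.99 without sham 2. Starvation against sham put Nt5e at 0.30 ± 0.77 on the log2 scale, at -1.26 without starvation 3 and at 1.06 without sham 2.

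Ada, adenosine deaminase, which turns adenosine into inosine, lies at chr2:163726584-163750239 (- strand). It was at 239, 425 and 167 CPM in sham, 111, 57.6 and 111 in TPN, and 96.4, 169 and 891 in starvation. As for Nt5e, TPN lay below sham without overlap and starvation 3 stood apart from its group, at 6.72 times the mean of the others. The log2 fold change of Ada was -1.57 ± 0.74 in TPN against sham (edgeR adjusted p = 0.206). The value for starvation against sham was 0.48 ± 0.72, and -1.08 without starvation 3.

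Pnp, purine nucleoside phosphorylase, which splits inosine and guanosine into base and ribose phosphate, varied least of the 8 genes, with its highest library at 2.25 times its lowest. It lies at chr14:50931082-50965237 (+ strand) and was at 334, 477 and 314 CPM in sham, 281, 255 and 264 in TPN, and 212, 248 and 450 in starvation. TPN lay below sham without overlap, with a log2 fold change of -0.49 ± 0.29 (edgeR adjusted p = 0.301). Its value in starvation against sham was -0.31 ± 0.29, and -0.73 without starvation 3, which then passed (edgeR adjusted p = 0.0427). Without starvation 3, 1739 of all genes passed in that comparison, against 541 with all libraries.

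Pnp2, a further phosphorylase gene, lies within the span of Pnp at chr14:50955992-50964749, and 28.5% of the 50-base stretches in its exons occur in Pnp. Pnp2 was at 126, 201 and 110 CPM in sham, 92.5, 75.7 and 84.7 in TPN, and 84.1, 94.0 and 198 in starvation. It took 22.9% to 30.6% of the reads of the pair in each library. The division of reads between Pnp and Pnp2 is uncertain, and the same holds for the gene models Gm49342 and Gm38316, which overlap exons of Pnp by 718 and 356 bases.

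Xdh, xanthine dehydrogenase, the molybdenum enzyme that oxidises hypoxanthine and xanthine to urate, lies at chr17:73883895-73950196 (- strand). It was at 345, 242 and 332 CPM in sham, 221, 162 and 162 in TPN, and 237, 265 and 600 in starvation. TPN lay below both other groups without overlap. Its log2 fold change was -0.75 ± 0.34 in TPN against sham and -1.02 ± 0.35 in TPN against starvation (edgeR adjusted p = 0.196 and 0.12). Without starvation 3 the latter was -0.41. Unlike Nt5e and Ada, Xdh was lower in sham 2 than in the other sham libraries.

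Per kilobase of exon, the sham level ran from Ada at 138 ± 66.5 CPM per kb through Slc28a2 at 116 ± 66.2 and Pnp at 94.2 ± 22.3 down to Slc29a1 at 7.22 ± 3.73 and Slc28a3 at 1.83 ± 0.86. Slc28a1 at 37.7 ± 7.23, Xdh at 33.4 ± 6.10 and Nt5e at 26.8 ± 19.2 CPM per kb lay between them. Neither the upper nor the middle of these sets held neighbours that differed beyond their SD. In TPN the order of these levels began with Slc28a2 at 85.7 ± 24.6 CPM per kb, followed by Pnp at 67.0 ± 3.26 and Ada at 46.6 ± 15.4. Slc28a1 dropped to 6.49 ± 1.37 CPM per kb in TPN, beside Nt5e at 7.92 ± 3.02 and Slc29a1 at 8.13 ± 0.869, and these neighbours did not differ beyond their SD. In starvation Slc28a1 was at 70.5 ± 22 CPM per kb and Pnp at 76.2 ± 32.2, while Slc28a2 at 264 ± 304 and Ada at 192 ± 219 had SDs larger than their means.

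In TPN against sham 1 of the 8 members, Slc28a1, passed at an adjusted p under 0.05, in the lower direction, beside 5.12% of all genes lower and 3.48% higher. Groups did not overlap for 5 members (Slc28a1, Nt5e, Ada, Pnp and Xdh, all lower in TPN), beside 42.7% of all genes. In starvation against sham 0 of 8 passed by edgeR, beside 2.55% of all genes higher and 1.14% lower, and 2 members were under an unadjusted p of 0.05, beside 23.4% of all genes. DESeq2 called 1 member there, Slc28a1 (DESeq2 adjusted p = 0.0231), beside 11.3% of all genes, and limma voom called 0, beside 3.03%. Slc28a1 (higher) and Slc29a1 (lower) were the 2 members without overlap in starvation against sham, beside 25.1% of all genes. In TPN against starvation Slc28a1 alone passed by edgeR, beside 3.90% of all genes lower and 1.94% higher, and 3 members did not overlap, beside 33.6%. The median log2 fold change of the 8 members was -0.62, 0.28 and -1.32 in these comparisons, against -0.02, -0.01 and -0.03 over all genes. Without starvation 3 the members' medians were -0.59, -0.56 and -0.21. Because the members were selected on these contrasts, nothing is read from the counts.

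**Figure D2:**
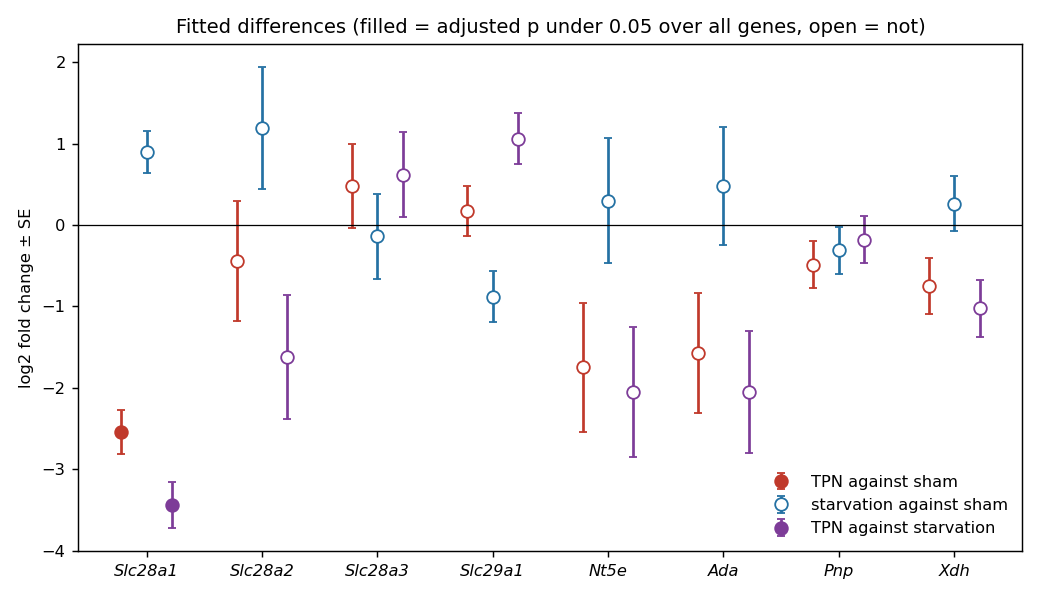
Fitted log2 fold change ± SE of each gene in TPN against sham, starvation against sham and TPN against starvation, with filled symbols for an edgeR adjusted p under 0.05 over all genes. The filled symbols are those of Slc28a1 at -2.54 and -3.44, and the bars of Slc28a2, Nt5e and Ada are the longest, with SEs of 0.72 to 0.80.

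The villus content of starvation 3 was compared with the members directly. The 8 villus tip markers summed to 74387 CPM in starvation 3, against 14567 and 24433 in starvation 1 and 2, and to 60188 in sham 2, against 25138 and 28741 in sham 1 and 3. The TPN libraries summed to 20205 to 25144 CPM. Apoa4 alone made up most of these sums, at 67506 CPM in starvation 3 and 54394 in sham 2. Of the 8 markers, 7 were higher in starvation 3 than in starvation 1 and 2, and 8 were higher in sham 2 than in sham 1 and 3. All 8 had reads in every library, with a median log2 fold change of -0.44 in TPN against sham. The 12 markers of villus enterocyte structure averaged 9.86 log2 CPM in starvation 3, against 8.37 to 9.05 in the other 8 libraries. The exception among the tip markers was Pkib, with 1.27 CPM in starvation 3 against 6.06 and 5.49.

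Slc28a2, Ada and Nt5e moved with the villus tip markers over the libraries. In starvation 3 they were 6.90, 6.72 and 6.73 times the mean of starvation 1 and 2, and in sham 2 they were 2.46, 2.10 and 3.10 times the mean of sham 1 and 3. Taken as log2 CPM minus the mean of the villus tip markers, the SD among sham libraries shrank from 0.77 to 0.21 for Slc28a2, from 0.68 to 0.22 for Ada and from 0.96 to 0.38 for Nt5e. In starvation the SD of this quantity was 0.90, 0.87 and 0.87, against 1.71, 1.67 and 1.66 for the unadjusted log2 CPM. Starvation 3 still exceeded the other starvation libraries by this measure, with Ada at 1.24 against -0.30 and -0.24. Relative to the structure markers the SD among sham libraries did not shrink, at 0.78 for Slc28a2, 0.69 for Ada and 0.97 for Nt5e. In starvation the SD relative to the structure markers was 1.03, 0.99 and 0.98.

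Relative to the villus tip markers, Slc28a1 stayed low in TPN. Its log2 level minus the marker mean was -0.40, -1.80 and -0.18 in sham, -2.73, -2.99 and -3.37 in TPN, and 0.28, 0.05 and -0.47 in starvation. TPN lay below both other groups, with differences of means of -2.24 against sham and -2.98 against starvation, while sham and starvation now overlapped. Relative to the structure markers the difference in starvation against sham was 0.79, without overlap. Ada and Nt5e also stayed lower in TPN than in sham relative to the tip markers, with differences of -1.23 and -1.30 and no overlap. Relative to the structure markers their sham and TPN libraries overlapped, with differences of -0.93 and -1.0. Slc28a2 showed a difference of -0.04 in TPN against sham relative to the tip markers. The edgeR fit was repeated with the mean of the structure markers, not the tip markers, as a covariate. Slc28a1 was then at -2.14 (edgeR adjusted p = 0.00125) in TPN against sham and at 0.80 (edgeR adjusted p = 0.0209) in starvation against sham. With the covariate 2361 of all genes passed in starvation against sham, against 541 without it. In that fit Ada was at -0.15 and Nt5e at -0.33 in TPN against sham. The part of villus content in these results was not tested beyond these values.

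With sham 2 and starvation 3 both left out, 5 members passed in TPN against sham by edgeR, beside 29.8% of all genes. They were Slc28a1, Xdh (-0.86, adjusted p = 0.0025), Ada (-1.08, adjusted p = 0.0263) and Nt5e (-0.94, adjusted p = 0.0397), which were lower, and Slc29a1 (0.73, adjusted p = 0.00301), which was higher. Without them, 1 member, Pnp, passed in starvation against sham, with a log2 fold change of -0.49 (edgeR adjusted p = 0.023), beside 19.9% of all genes. Slc28a1 and Slc29a1 passed in TPN against starvation, beside 21.6% of all genes. Without starvation 3 alone, Ada (-1.54), Nt5e (-1.72), Xdh (-0.73) and Slc28a1 passed in TPN against sham. In that fit 3182 of all genes passed, against 1261 with all 9 libraries.

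**Figure D3:**
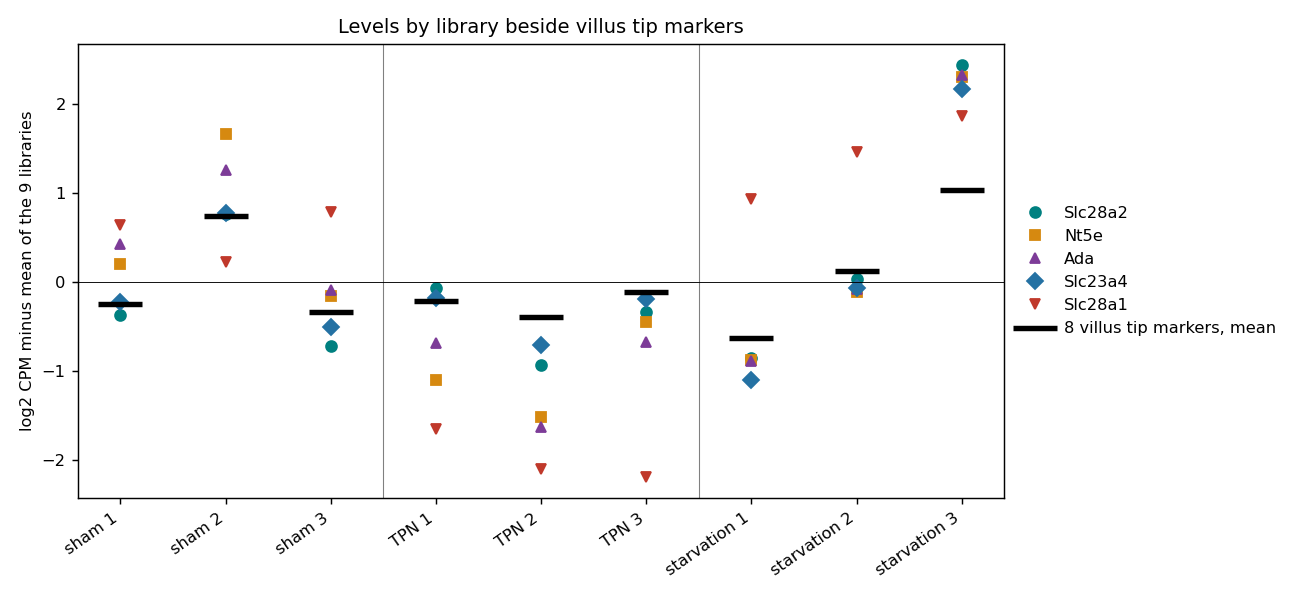
Log2 CPM minus each gene's mean over the 9 libraries, for Slc28a2, Nt5e, Ada, Slc28a1 and Slc23a4, with a black dash for the mean of the 8 villus tip markers centred the same way. Slc28a2, Nt5e, Ada and Slc23a4 lie above the dash in starvation 3, where they are 6.32 to 6.90 times the mean of the other starvation libraries, and Slc28a1 is the lowest symbol in each TPN library.

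The genes most like each member were found by the root mean square difference of centred log2 CPM over the 9 libraries, where 0 is an identical profile. This is a description over 9 libraries that share depth, groups and villus content. Closest to Slc28a1 were the sugar transporter genes Slc2a7 (0.13) and Slc5a4a (0.26) and the aldo-keto reductase Akr1c14 (0.32), beside 1.47 for the spread of Slc28a1 itself. Closest to Slc28a2 were Slc23a4 (0.18), a relative of the ascorbate transporters that carries nucleobases in rodents, 4930539E08Rik (0.37) and Ptprr (0.38). Slc23a4 was at 157, 314 and 129 CPM in sham, 162, 112 and 160 in TPN, and 85.0, 175 and 821 in starvation, with the same high libraries as Slc28a2.

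Ada and Nt5e were each other's nearest gene, with a difference of 0.23, followed for both by 4930539E08Rik and Rhod (0.31 to 0.35). Slc28a2 differed by 0.50 from Ada and 0.57 from Nt5e, but by 1.35 from its sister Slc28a1. Slc28a3 lay nearest to Notch1 (0.16), Sinhcaf (0.17) and Nr5a2 (0.18). Slc29a1 lay nearest to the Fc receptor gene Fcgr3 (0.13) and the complement genes C1s1 (0.14) and C1ra (0.15). Macrophage markers averaged 4.53 to 5.13 log2 CPM in sham, 4.72 to 4.78 in TPN and 3.92 to 4.45 in starvation, and their part in the Slc29a1 level was not tested. Pnp lay nearest to Cd151 (0.06), D1Ertd622e (0.08) and Dhrs7b (0.09), and Xdh to Ptprh (0.12), Btnl6 (0.13) and Stap2 (0.14).

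Around the members, 103 genes of related steps were listed, of which 102 were in the table and 93 were tested. In TPN against sham 4 of them rose (4.30%) and 7 fell (7.53%) by edgeR, beside 3.48% and 5.12% of all genes. In starvation against sham 1 rose and 1 fell (1.08% each), beside 2.55% and 1.14% of all genes. In TPN against starvation 1 was higher (1.08%) and 7 were lower (7.53%), beside 1.94% and 3.90%. Their median log2 fold changes were 0.04, -0.08 and 0.02, beside -0.02, -0.01 and -0.03 for all genes. Of the 11 in TPN against sham, 10 were lost without TPN 2 (edgeR adjusted p 0.0582 to 0.161) and without TPN 3 (0.0516 to 0.144), and the call of Gda remained in all 22 alternative fits. Without TPN 1, sham 3, sham 1, sham 2 and starvation 2, 8, 8, 6, 5 and 6 of the 11 were lost, with edgeR adjusted p up to 0.165. All 8 calls in TPN against starvation were lost on leaving out any TPN library (edgeR adjusted p 0.0541 to 0.193).

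In purine breakdown, Gda, the guanine deaminase that feeds xanthine to Xdh, fell in TPN. Gda was at 3026, 2641 and 2694 CPM in sham, 795, 641 and 707 in TPN, and 1757, 1955 and 3587 in starvation, so TPN lay below both other groups. Its log2 fold change was -1.96 ± 0.28 against sham (edgeR adjusted p = 0.00528) and -1.77 ± 0.28 against starvation (adjusted p = 0.0104). Slc17a4, a membrane carrier able to export urate, rose in TPN from 42.0, 40.4 and 37.3 CPM in sham to 162, 130 and 121, by 1.79 ± 0.34 on the log2 scale (edgeR adjusted p = 0.016). Slc17a4 in starvation was at 40.9, 64.1 and 125 CPM, so starvation 3 reached the TPN range. Slc2a9, a urate transporter, rose in starvation against sham by 0.84 ± 0.19 (edgeR adjusted p = 0.0464), from 65, 50.4 and 70.8 CPM to 92.8, 109 and 131. That call held in 7 of 22 alternative fits and was lost without sham 1, sham 2, sham 3, starvation 2 or any TPN library (edgeR adjusted p 0.0716 to 0.124). Slc2a9 was also lower in TPN, at 61.1, 60 and 45 CPM, than in starvation, without overlap (-1.01 ± 0.19, edgeR adjusted p = 0.0184). The call of Slc2a9 in TPN against starvation held in 15 of 22 alternative fits. Uox, the urate oxidase that degrades urate in mouse liver, had 21 reads in all and did not pass the filter.

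Of genes that break nucleotides down outside the cell, 3 of 14 (21.4%) fell in TPN against sham, beside 5.12% of all genes. They were the intestinal alkaline phosphatase Alpi (-1.77 ± 0.44), the nuclease Dnase1 (-1.48 ± 0.34) and the ectonucleotidase Entpd2 (-0.80 ± 0.19), with edgeR adjusted p of 0.0395, 0.0301 and 0.0376. All 3 calls were lost with the villus covariate and with the smooth muscle covariate, and over all alternatives their adjusted p reached 0.161, 0.201 and 0.185. Alpi was at 5355, 2738 and 3634 CPM in sham, 1501, 792 and 1141 in TPN, and 3210, 2789 and 7696 in starvation. Its starvation level was also above TPN (TPN against starvation -2.0 ± 0.44, edgeR adjusted p = 0.032). Without starvation 3 that value was -1.34 (edgeR adjusted p = 0.036). Akp3, another intestinal phosphatase, ranged from 119 to 5304 CPM within sham alone and did not pass.

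Of the 4 adenosine receptor genes, whose products sense the adenosine that Nt5e makes, 1 fell and 1 rose in TPN against sham, beside 5.12% and 3.48% of all genes. Adora1 (0.23 ± 0.39) and Adora3 (0.43 ± 0.39) did not pass (edgeR adjusted p = 0.743 and 0.509). Adora2b fell, from 38.9, 37.2 and 43.5 CPM in sham to 13.1, 9.42 and 7.93 in TPN (log2 fold change -1.97 ± 0.33, edgeR adjusted p = 0.00997). Adora2b was also below starvation (log2 fold change -1.76 ± 0.33, edgeR adjusted p = 0.0176, and -1.23 without starvation 3). Adora2a rose in TPN from 3.63, 3.84 and 4.0 CPM in sham to 10.1, 7.03 and 7.45, by 1.10 ± 0.27 (edgeR adjusted p = 0.0383). The rise was not particular to TPN. Starvation Adora2a was at 6.3, 9.08 and 9.72 CPM, also above sham without overlap, though this did not pass (edgeR adjusted p = 0.0519). TPN and starvation overlapped for Adora2a, with a log2 fold change of -0.03 ± 0.26 in TPN against starvation. The Adora2a call in TPN against sham was lost on leaving out any sham or TPN library or starvation 2 (edgeR adjusted p 0.0642 to 0.165).

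Among salvage enzymes, 1 of 17 tested (5.88%) rose in TPN against sham, beside 3.48% of all genes. Prps1, which makes the ribose donor PRPP used by salvage and synthesis, rose from 10.6, 9.71 and 6.50 CPM in sham to 20.1, 24.1 and 25.0 in TPN (1.37 ± 0.24, edgeR adjusted p = 0.012). In starvation Prps1 was at 20.4, 14.9 and 13.7 CPM, also above sham without overlap (0.87 ± 0.24, edgeR adjusted p = 0.08). The base salvage genes Hprt and Aprt and the adenosine kinase gene Adk did not pass, with log2 fold changes of -0.15 ± 0.13, -0.36 ± 0.26 and 0.02 ± 0.16 in TPN against sham. The 10 tested genes of purine synthesis from scratch had medians of 0.22 in TPN against sham, -0.34 in starvation against sham and 0.62 in TPN against starvation, and their lowest edgeR adjusted p was 0.0718. Mocs2, needed to build the molybdenum cofactor of Xdh, was at 59.2, 50.4 and 47.3 CPM in TPN against 76.7, 95.6 and 151 in starvation (-1.04 ± 0.23, edgeR adjusted p = 0.0328).

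On the pyrimidine side, Umps, which makes UMP in pyrimidine synthesis, fell in starvation against sham from 15.1, 13.9 and 17.0 CPM to 9.18, 8.34 and 5.21 (-1.01 ± 0.24, edgeR adjusted p = 0.0489). That call held in 6 of 22 alternative fits and was lost on leaving out any library other than starvation 3 (edgeR adjusted p 0.0543 to 0.131). Umps was also higher in TPN than in starvation (0.98 ± 0.24, edgeR adjusted p = 0.0429). Upp2, a uridine phosphorylase, rose in TPN against sham by 1.17 ± 0.28 (edgeR adjusted p = 0.0374), from 5.58 to 6.61 CPM in sham to 9.45 to 18.4. In the supply of deoxynucleotides, the kinase Cmpk2 fell in TPN against sham (log2 fold change -1.47 ± 0.28, edgeR adjusted p = 0.0146). Cmpk2 was at 105, 132 and 120 CPM in sham, 46.5, 43.7 and 38.9 in TPN, and 49.9, 60.3 and 113 in starvation. Upb1, an enzyme of uracil breakdown, was lower in TPN, at 3.79, 4.53 and 3.28 CPM, than in starvation, at 9.89, 10.3 and 16.2 (log2 fold change -1.65 ± 0.42), with an edgeR adjusted p just under the threshold. The Upb1 call held in 7 of 22 alternative fits and was lost on leaving out any library other than sham 2. Sham Upb1 was at 5.01, 1.49 and 4.17 CPM. Against sham, TPN was at 0.11 ± 0.42 and starvation at 1.76 ± 0.42 (edgeR adjusted p = 0.894 and 0.0514).

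**Figure D4:**
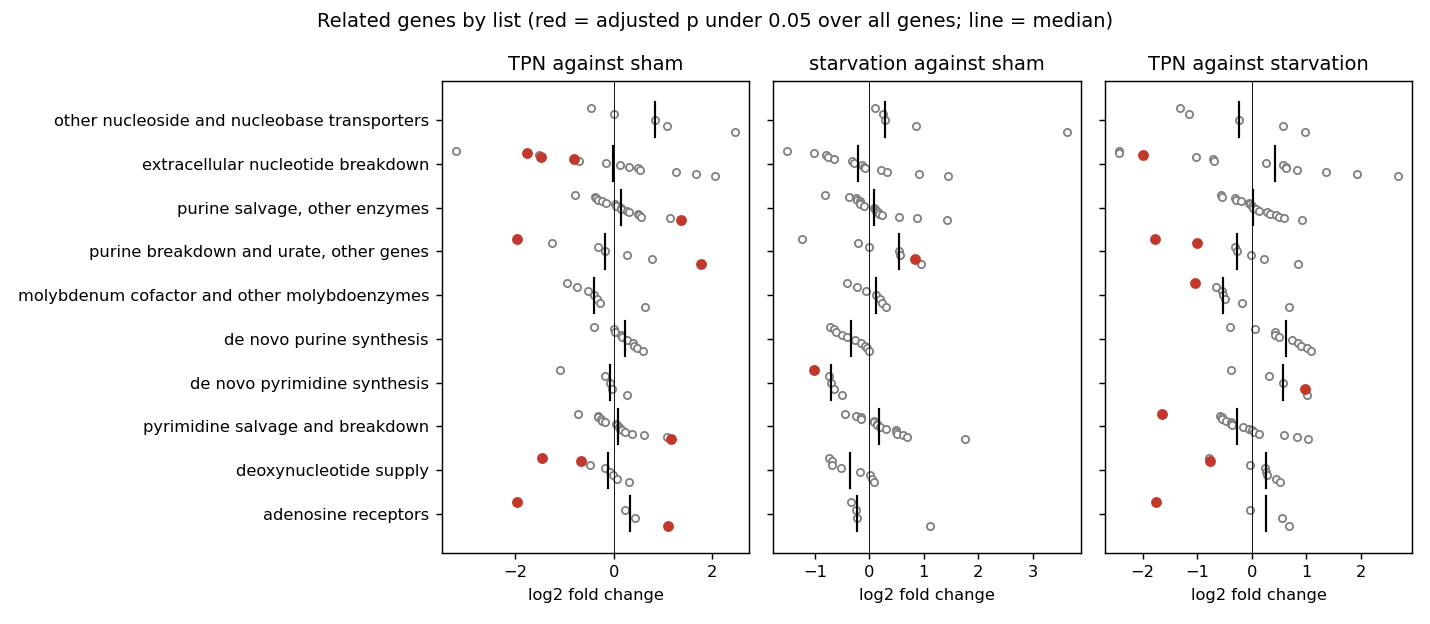
Fitted log2 fold changes of the 93 tested related genes, by list, in TPN against sham, starvation against sham and TPN against starvation, with red for an edgeR adjusted p under 0.05 over all genes and a line at each list's median. Red symbols number 11 in TPN against sham, and among the largest are Gda at -1.96 and Adora2b at -1.97.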

How the data were processed

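Raw counts per gene symbol were deposited by the authors as a table of whole numbers, with no normalization. STAR 2.7.2e and featureCounts 2.0.0 are named in the submitters' processing notes, besides cutadapt 2.9, FastQC 0.11.8, DESeq2 1.32.0 and the builds mm10 and GRCm38. The strand setting and multi-mapping rule were not given in the sources used here. Libraries, per the labels' protocols, came from oligo(dT) selection and random-hexamer priming. The table's 9 columns that matched no labelled sample were not used.

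Counts were fitted with edgeR 4.0.16 in R 4.3.3. Of 21868 genes, filterByExpr kept 14668 and removed 7200. TMM factors scaled the libraries, and group means were fitted to all 9 libraries by quasi-likelihood (6 residual degrees of freedom, common dispersion 0.0987). Each comparison was a contrast of group means, with Benjamini-Hochberg adjustment over all genes tested and a threshold of 0.05. The SE is the log2 fold change divided by the square root of F. Log2 CPM used a prior count of 2. The fit was tested on simulated counts first. Positions and exon lengths came from GENCODE release M21 on GRCm38, and promoters from RefSeq, where Xdh was not matched.

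The 8 members and all lists were chosen with earlier results of these data known, so no count of members is independent evidence. Named genes were the members, up to 4 genes per related list, comparison and direction with the smallest adjusted p under 0.05, and the 3 genes most like each member; Hprt, Aprt, Adk, Uox, Akp3, Adora1, Adora3, Pkib, Pnp2, Gm14085 and the overlapping gene models were named for their role or position. A gene that this rule took is counted in its list but not reported here. Alternatives were DESeq2 1.42.0, voom of limma 3.58.1, other scaling, other filters, only the groups compared and a block for replicate number. Further fits took the villus enterocyte structure markers (the villus covariate) or the smooth muscle markers as a covariate. The remaining alternatives were each library left out, sham 2 and starvation 3 left out together, and an adjusted p under 0.01.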

Additional observations from a re-analysis of the deposited data

How the results depend on the processing

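Slc28a1 remained past the threshold in all 22 alternative fits in TPN against sham (log2 fold change -2.73 to -2.14) and in TPN against starvation (-3.65 to -2.93). Members called in TPN against sham, starvation against sham and TPN against starvation numbered 1, 0 and 1, and elsewhere 1, 1 and 3 by DESeq2, 3, 0 and 2 in fits of only the groups compared, 1, 1 and 1 with the villus covariate, 5, 1 and 2 without sham 2 and starvation 3, and 1, 0 and 2 with the smooth muscle covariate. Leaving out each library gave 1 to 4, 0 to 1 and 1 to 2 members.

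Over all genes, 1261, 541 and 857 passed, and 2421, 1654 and 1791 by DESeq2, 2774, 2 and 545 in fits of only the groups compared, 1955, 2361 and 932 with the villus covariate, 4425, 2949 and 3205 without sham 2 and starvation 3, 440, 258 and 1193 with the smooth muscle covariate, and 258, 30 and 144 at an adjusted p under 0.01. Scaling by library totals gave 353 in starvation against sham. Leaving out each library gave 216 to 3182, 32 to 1739 and 124 to 1248. The causes were not tested. Deviations from the group mean correlated at -0.3 to 0.378 between same-numbered libraries and at -0.58 to 0.481 between the others. Markers of proximal small intestine were highest in replicate 1 of each group, at 6.72, 5.28 and 5.92 log2 CPM. Acinar markers were high in replicate 1 of each group and in TPN 2. Whether the replicate numbers mark a shared factor was not tested further. With the replicate block 556, 71 and 386 genes passed, with 1, 0 and 1 members, Slc28a1 among the calls as before.

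Signs that turned were those of values that had not passed. In TPN against sham, the villus covariate gave Slc28a2 1.03, Slc28a3 -0.55, Slc29a1 -0.02 and Slc23a4 0.96, the smooth muscle covariate Slc28a2 0.88, Slc28a3 -0.36 and Slc23a4 0.71, and the fit without sham 2 and starvation 3 Slc28a2 0.18 and Slc23a4 0.06. In starvation against sham, Ada was -0.05 and Nt5e -0.11 by voom, -0.04 and -0.23 with the replicate block, and -0.39 and -0.56 with the villus covariate, which put Slc23a4 at -0.00. Without sham 2 and starvation 3, Ada was -0.61, Nt5e -0.48, Xdh -0.43 and Slc23a4 -0.14, and the smooth muscle covariate put Pnp2 at 0.18. In TPN against starvation, the villus covariate gave Slc28a2 0.74, Slc28a3 -0.28, Ada 0.25, Nt5e 0.23, Pnp 0.46, Slc23a4 0.97 and Pnp2 0.19, library totals Pnp 0.04, and the fit without sham 2 and starvation 3 Pnp 0.25 and Slc23a4 0.20.

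Leaving out each library turned the sign in TPN against sham for Slc28a2 (-0.70 to 0.13), Slc29a1 (-0.03 to 0.68) and Slc23a4 (-0.70 to 0.01). In starvation against sham it did so for Slc28a2 (-0.40 to 1.76), Slc28a3 (-0.50 to 0.26), Ada (-1.08 to 0.94), Nt5e (-1.26 to 1.06), Xdh (-0.31 to 0.50), Slc23a4 (-0.64 to 1.33) and Pnp2 (-0.73 to 0.09), and in TPN against starvation for Pnp (-0.39 to 0.27) and Slc23a4 (-1.78 to 0.21).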
